A study of Arabidopsis thaliana with 8 samples.

Results

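The 44 genes described here are nuclear genes of Arabidopsis thaliana for the light-harvesting antenna proteins of photosystem I (LHCA1 to LHCA4) and photosystem II (LHCB1 to LHCB6), photosystem I subunits (PSA), photosystem II subunits (PSB) and the small subunit of Rubisco (RBCS). They were picked by gene name from the 33602 genes of the deposited table and grouped by complex. Earlier results of these data were known at that time, so counts and medians over the members are descriptions. There were 4 LHCA, 9 LHCB1 to LHCB3, 5 LHCB4 to LHCB6, 12 PSA, 10 PSB (5 of them extrinsic subunits of the oxygen-evolving complex) and 4 RBCS genes. RNA-seq was made from whole seedlings of 4 genotypes, with 2 libraries each: the double mutant cob-6sfr6-3, the single mutants cob-6 and sfr6-3, and the Col-0 wild type (WT). COB encodes COBRA, a cell-surface protein needed for oriented cell expansion, and SFR6 is MED16, a subunit of the Mediator complex that links transcription factors to RNA polymerase II. All seedlings were 7 days old and grown under 24 h of light a day, and no other treatment separates the groups. The labels give the wild type as Col-0 and do not give the background of the mutant lines or the number of seedlings in a library. They also do not say whether the 2 libraries of a genotype came from separate plantings; the p-values below therefore rest on library-to-library spread, which may be technical.

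In plants, light is absorbed mainly by chlorophyll-binding LHC proteins, which pass the energy to the reaction centres of photosystem II, where water is oxidised, and photosystem I, where ferredoxin is reduced. The reaction-centre proteins themselves and the large subunit of Rubisco are encoded in the chloroplast, whereas the antenna proteins, many peripheral subunits and the Rubisco small subunit are made from the nuclear genes described here and imported. Transcription of these nuclear genes is known to respond to light and to the state of the plastid. Several are present as near-identical copies, and reads that match more than 1 copy cannot be placed. For these copies the reads that map to a single place are given.

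The copies are shown here because their likeness decides which values can be read gene by gene. LHCB1.1, LHCB1.2 and LHCB1.3 lie side by side (AT1G29920, chr1:10474656-10475969; AT1G29910, chr1:10472280-10473502; AT1G29930, chr1:10477885-10479114; RefSeq annotation of TAIR10.1). Their coding sequences of 804 bases differ from that of LHCB1.3 at 31 bases in LHCB1.1 and at 29 bases in LHCB1.2. The stretch of 1 read length (100 bases) in which both differ most from LHCB1.3 runs over coding bases 33 to 132, counted from the first base of the start codon. It holds 8 of the differences of LHCB1.1 and 6 of those of LHCB1.2, printed in capitals.
LHCB1.3: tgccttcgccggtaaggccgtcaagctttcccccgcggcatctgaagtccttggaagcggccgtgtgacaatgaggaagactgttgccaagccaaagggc
LHCB1.1: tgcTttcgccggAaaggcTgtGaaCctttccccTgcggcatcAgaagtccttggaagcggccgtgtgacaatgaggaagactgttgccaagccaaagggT
LHCB1.2: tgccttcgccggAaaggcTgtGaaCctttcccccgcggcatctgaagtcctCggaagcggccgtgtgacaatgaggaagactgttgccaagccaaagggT

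The 3 B-type small-subunit genes RBCS1B, RBCS2B and RBCS3B are likewise neighbours (AT5G38430, chr5:15383167-15385320; AT5G38420, chr5:15380907-15382071; AT5G38410, chr5:15376988-15378642). Against RBCS3B, the coding sequences (546 bases) of RBCS1B and RBCS2B differ at 18 and 17 bases, of which 10 and 8 fall within coding bases 51 to 150 and are in capitals.
RBCS3B: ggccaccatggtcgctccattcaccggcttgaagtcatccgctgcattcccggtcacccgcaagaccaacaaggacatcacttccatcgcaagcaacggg
RBCS1B: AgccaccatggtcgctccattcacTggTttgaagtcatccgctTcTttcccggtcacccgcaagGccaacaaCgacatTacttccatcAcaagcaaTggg
RBCS2B: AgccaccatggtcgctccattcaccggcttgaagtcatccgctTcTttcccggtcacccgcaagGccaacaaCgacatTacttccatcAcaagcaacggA

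Reads that mapped to a single place made up 67.4% of the reads of LHCB1.1, 79.8% of LHCB1.2, 71.5% of LHCB1.3, 70.3% of LHCB2.1, 69.6% of LHCB2.2, 63.6% of RBCS1B, 55.1% of RBCS2B and 61.4% of RBCS3B, over all libraries. The share was 56.1% for PSAH1, 89.4% for LHCB1.5 and 89.8% for LHCB1.4, and 96.6% or more for each remaining member; these can be read singly.

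The table held between 24011199 and 37744914 reads in genes in 7 of the libraries and 324504432 in WT replicate 1. In reads that map to a single place, WT replicate 1 was below the sum of the other 7 libraries in 0 of 25179 genes and equal to that sum in 1178. For the 44 members it held 1.54 to 2.26 times the sum. No label says where these reads came from, and whether WT replicate 1 holds the reads of the other 7 libraries was not tested. If it does, it is not an independent WT library, although the tests against WT and the interaction treat it as one. Members called against WT are therefore also given without WT replicate 1, which leaves WT as 1 library assumed to vary like the other genotypes. The library then left, WT replicate 2, was above WT replicate 1 in 36 of 44 members. COB had 82.5 and 70.3 CPM in the double mutant, 68.3 and 66.9 in cob-6 plants, 187 and 187 in sfr6-3 plants and 143 and 239 in WT. MED16 had 10.8 and 7.48 CPM (cob-6sfr6-3), 29.3 and 39.1 (cob-6), 8.59 and 8.45 (sfr6-3) and 24.3 and 34.5 (WT). By edgeR's quasi-likelihood test (adjusted p below 0.05 over all genes), COB fell in cob-6 and in cob-6sfr6-3 and MED16 fell in sfr6-3 and in cob-6sfr6-3, each against WT. CPM is the total read count of a gene scaled to a common library size, with library sizes set by the TMM method. Reads in introns made up 2.47% to 3.2% of gene reads. A root marker list of 19 genes summed to 294 and 313 CPM in the double mutant, 254 and 267 in cob-6 plants, 374 and 344 in sfr6-3 plants and 316 and 388 in WT. None of the 19 was at 0 in every library, and CASP5 and WOX5 were at 0 in some.

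The members were among the most abundant RNAs of these seedlings. On the RPKM scale, which divides by gene length and so allows genes to be compared, 9 of the 10 genes with the highest mean level over the 4 genotypes were members, as were 26 of the top 50 and 34 of the top 100. The members together took 8.85% to 11.7% of gene reads in a library. RBCS1A, the most expressed copy of the Rubisco small subunit, was the first of all genes, at a mean of 14351 RPKM (range over libraries 11199.8 to 18325). It was followed by the major antenna genes LHCB1.3 at 10313 RPKM and LHCB1.5 at 8023 RPKM. Of the photosystem I genes, PSAG had the highest level (3873 RPKM) and PSAD2 the lowest (454 RPKM). Of the photosystem II genes, PSBO1 was first (2628 RPKM) and PSBS last (390.0 RPKM). All members but 1 ranked within the first 316 genes: LHCB4.3, a rarely expressed copy of the minor antenna protein CP29, had 6.72 RPKM and rank 12133.

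Seen as a group, most members were lower in each mutant than in WT, by less than the spread that the test requires. The fitted log2 fold change was below 0 in 32 of 44 members in cob-6sfr6-3 against WT, in 41 in cob-6 against WT and in 41 in sfr6-3 against WT. Over all 21384 genes tested, 47.7%, 49% and 49.5% were below 0 in these comparisons. The median log2 fold change over the members was -0.17 in cob-6sfr6-3, -0.29 in cob-6 and -0.31 in sfr6-3, against medians of 0.019, 0.0061 and 0.003 over all genes. These 3 comparisons share the WT libraries, so their directions are not independent. In whole seedlings, fewer green cells and less of these RNAs per green cell cannot be told apart.

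**Figure D1:**
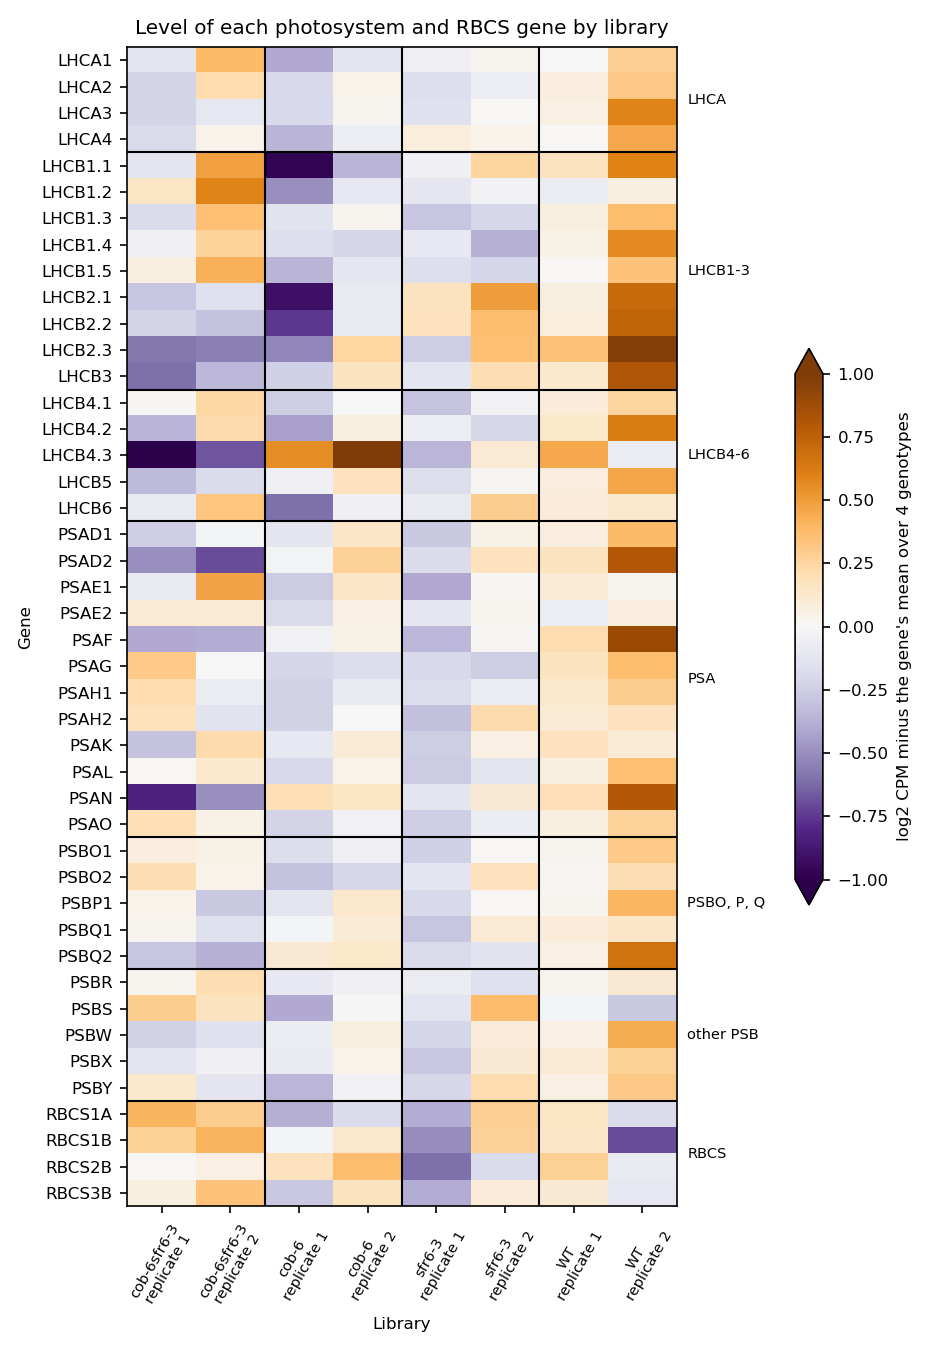
Level of each of the 44 genes (one line per gene, ordered by complex) in the 8 libraries, with cob-6sfr6-3 at the left and WT at the right. Colour is the log2 CPM minus the gene's mean over the 4 genotypes. WT had the highest genotype mean in 30 of 44 genes and cob-6sfr6-3 in 12.

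The replicates of a genotype were themselves apart. Replicate 2 was above replicate 1 in 30 of 44 members in cob-6sfr6-3, 42 in cob-6, 38 in sfr6-3 and 36 in WT, where 49% to 50.5% of all genes were. The median of the replicate difference over the members was 0.12 log2 units in cob-6sfr6-3, 0.24 in cob-6, 0.28 in sfr6-3 and 0.27 in WT, close in size to the medians between genotypes. Whether this comes from the plants or the libraries was not tested.

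No member passed an adjusted p of 0.05 in cob-6 against WT (all genes: 0.0889%) or in sfr6-3 against WT (0.131%), by edgeR's quasi-likelihood test with Benjamini-Hochberg adjustment over all genes. At an unadjusted p below 0.05, 14 of 44 members were lower and 0 higher in cob-6, and 13 were lower and 0 higher in sfr6-3. The shares over all genes were 3.35% lower and 1.91% higher in cob-6, and 4.41% lower and 1.18% higher in sfr6-3. In cob-6sfr6-3 against WT, 2 members fell, PSAD2 and PSAN, and none rose, where 0.846% of all genes were called (0.8% lower). In cob-6sfr6-3 against cob-6, LHCB4.3 fell and no other member was called (1.36% of all genes, 0.893% lower). No member was called in cob-6sfr6-3 against sfr6-3 (0.0748% of all genes) or in the interaction (0.0514% of all genes), which asks whether cob-6 changes a level by another factor in sfr6-3 plants than in WT plants. At an unadjusted p below 0.05, 4 members were lower and 6 higher in cob-6sfr6-3 against cob-6 (all genes: 8.71% and 7.95%), and 6 lower and 4 higher against sfr6-3 (6.78% and 7.6%). In the interaction they were 1 and 10 (3.99% and 5.09%). DESeq2 called 8 members in cob-6sfr6-3 against WT (2.76% of all genes), 3 in cob-6 against WT (0.502%), and 1 in sfr6-3 against WT (0.674%). It also called 6 in cob-6sfr6-3 against cob-6 (3.77%), 1 in cob-6sfr6-3 against sfr6-3 (1.82%) and 1 in the interaction (0.314%). Without WT replicate 1, edgeR called 10 members in cob-6sfr6-3 against WT (3.45% of all genes), 1 in cob-6 against WT (0.621%) and 2 in sfr6-3 against WT (0.757%). It then called 3 in cob-6sfr6-3 against cob-6 (1.85%), 0 against sfr6-3 (0.437%) and 0 in the interaction (0.036%). With the other 7 libraries subtracted from WT replicate 1 in single-place reads, it called 7 members in cob-6sfr6-3 against WT (3.56%), 0 in cob-6 against WT (0.419%) and 1 in sfr6-3 against WT (0.718%). That setting gave 2 in cob-6sfr6-3 against cob-6 (1.99%), 0 against sfr6-3 (0.452%) and 0 in the interaction (0.0238%). A test over all 4 genotypes at once called 0 members, with 1.35% of all genes called. PSAN and LHCB4.3 came closest, at adjusted p of 0.052 and 0.0534 by edgeR. DESeq2 called 12 members, and its share of all genes in that test is not given here.

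**Figure D2:**
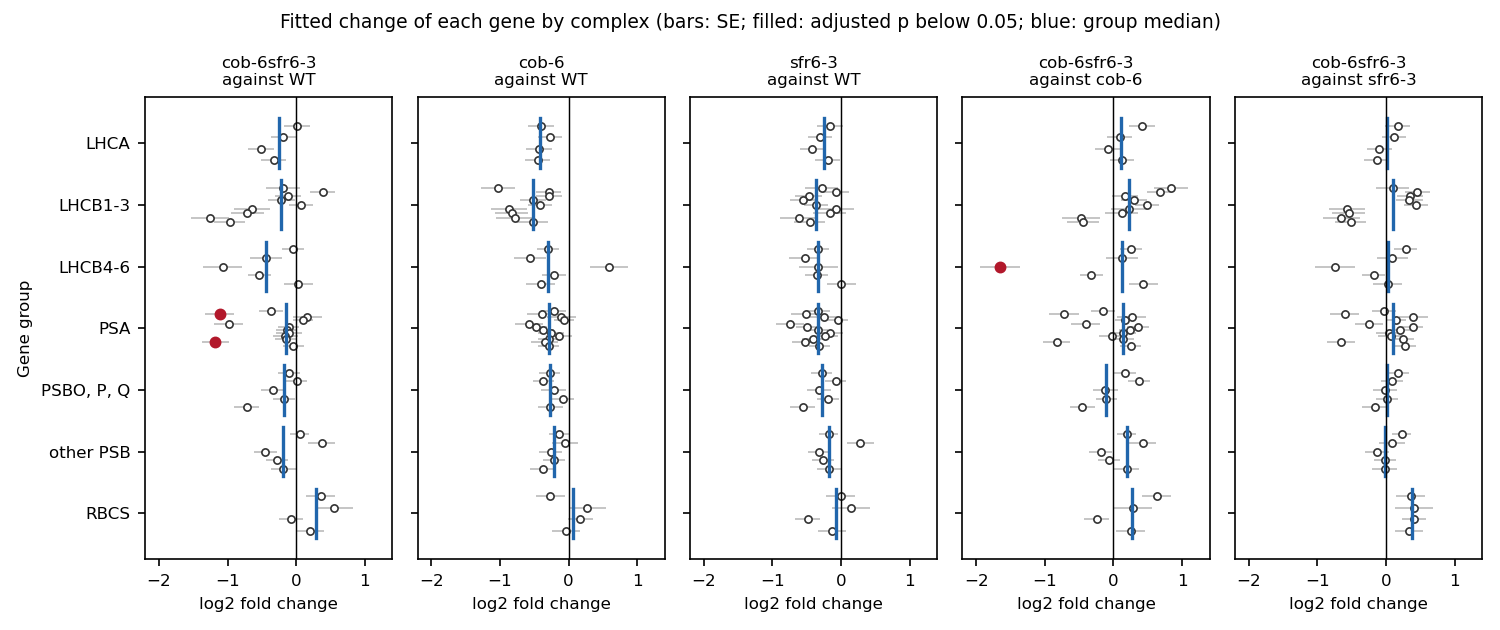
Fitted log2 fold change of each member (point, with its standard error) by complex, one panel per comparison. Red points passed an adjusted p of 0.05 and blue bars are the median of the complex. The red points are PSAD2 and PSAN in cob-6sfr6-3 against WT and LHCB4.3 in cob-6sfr6-3 against cob-6. Most points of the single mutants against WT lie below 0.

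Among the photosystem I subunits, PSAN, PSAD2 and PSAF had both cob-6sfr6-3 libraries below all others. PSAN (AT5G64040, chr5:25628521-25629708) encodes a lumenal subunit at the plastocyanin side. It had 228 and 288 CPM (cob-6sfr6-3), 465 and 451 (cob-6), 374 and 439 (sfr6-3) and 464 and 702 (WT). Both cob-6sfr6-3 libraries lay below all 6 others, and PSAN fell by 1.18 log2 units in cob-6sfr6-3 against WT (SE 0.20, adjusted p = 0.0196, edgeR's quasi-likelihood test). Against the single mutants its log2 fold change was -0.83 ± 0.20 for cob-6 (adjusted p = 0.0689 by edgeR) and -0.66 ± 0.20 for sfr6-3 (adjusted p = 0.194 by edgeR). DESeq2 called PSAN lower in both of these comparisons. PSAD2 (AT1G03130, chr1:753307-754262), a copy of the stromal subunit at which ferredoxin docks, had 275 and 238 CPM in the double mutant, 380.0 and 466 in cob-6 plants, 341 and 438 in sfr6-3 plants and 436 and 676 in WT. It too was lowest in both cob-6sfr6-3 libraries, and fell by 1.11 log2 units against WT (SE 0.21, adjusted p = 0.0362). PSAF (AT1G31330, chr1:11214676-11216141), the integral subunit to which plastocyanin binds, had 1042 and 1050.4 CPM (cob-6sfr6-3), 1346 and 1429 (cob-6), 1087 and 1389 (sfr6-3) and 1597 and 2547 (WT). The double mutant was again below every other library, at -0.99 ± 0.21 against WT, with an adjusted p of 0.0532 by edgeR, which missed the threshold, and of 4.69e-05 by DESeq2.

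The PSAN and PSAD2 calls were lost in 4 of the other settings tried, with the direction kept. For PSAN the log2 fold change was -0.85 (adjusted p = 0.108) without WT replicate 2, and -1.02 (adjusted p = 0.0686) without cob-6sfr6-3 replicate 1. It was -1.36 (adjusted p = 0.0544) without cob-6sfr6-3 replicate 2 and -1.18 (adjusted p = 0.0985) with only the 4 libraries compared in the fit. For PSAD2 these settings gave, in the same order, -0.76 (adjusted p = 0.248), -1.22 (adjusted p = 0.0628), -1.01 (adjusted p = 0.171) and -1.12 (adjusted p = 0.111). Without WT replicate 1 both passed, PSAN at -1.45 ± 0.19 (adjusted p = 0.000789) and PSAD2 at -1.40 ± 0.20 (adjusted p = 0.00145). So did PSAF, at -1.28 ± 0.19 (adjusted p = 0.00145). In sfr6-3 against WT, PSAF stood at -0.74 ± 0.21 with all libraries (adjusted p = 0.404 by edgeR), and DESeq2 called it lower. Leaving out each library in turn, that change ranged over -1.04 (without WT replicate 1) to -0.37. With the other 7 libraries taken off WT replicate 1 in single-place reads, it was -0.86 ± 0.18 (adjusted p = 0.0349 by edgeR).

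**Figure D3:**
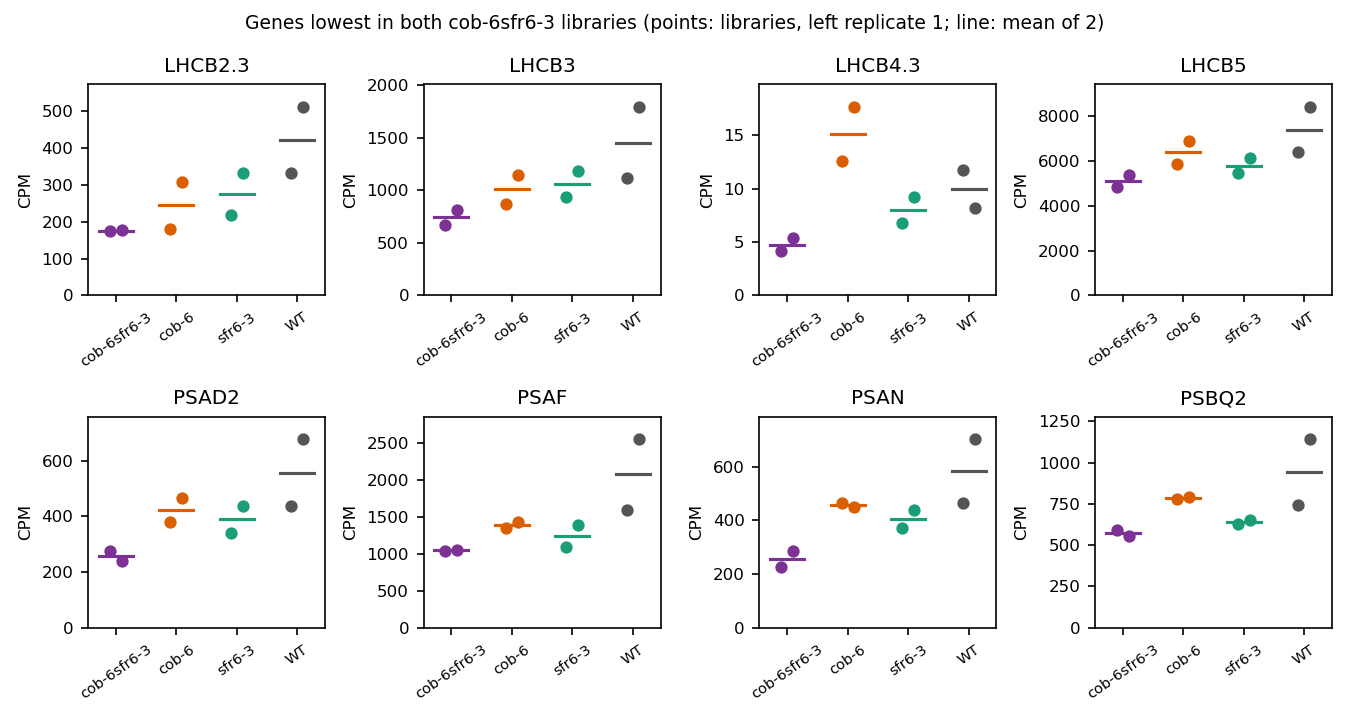
CPM of the 8 members whose 2 cob-6sfr6-3 libraries lay below all 6 other libraries. Points are libraries and bars genotype means, with cob-6sfr6-3 at the left of each panel and WT at the right. PSAN stood at 228 and 288 CPM in cob-6sfr6-3, against 464 and 702 CPM in WT.

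Other photosystem I genes stood in another order. PSAG (AT1G55670, chr1:20802670-20803449), a membrane subunit at the antenna side of the complex, had 3704 and 2993 CPM in the double mutant, 2583 and 2643 in cob-6 plants, 2599.9 and 2515 in sfr6-3 plants and 3364 and 3866 in WT. Both single mutants lay below both WT libraries, at -0.47 ± 0.15 for cob-6 (adjusted p = 0.652) and -0.50 ± 0.15 for sfr6-3 (adjusted p = 0.50). The double mutant lay above both single mutants and overlapped WT. Its interaction term was 0.86 ± 0.22 (adjusted p = 0.383 by edgeR and 0.0105 by DESeq2, where it was the member called). PSAO, of the region where the mobile photosystem II antenna binds in state transitions, also had both cob-6sfr6-3 libraries above all single-mutant libraries, at log2 fold changes of 0.25 against cob-6 and 0.28 against sfr6-3, neither called. PSAH1, of the same region, did so on all reads but not in single-place reads. In single-place reads PSAH1 had 474 and 507 CPM (cob-6sfr6-3), 395 and 479 (cob-6), 425 and 478 (sfr6-3) and 495 and 562 (WT). Of that region too, PSAH2 overlapped both single mutants and PSAL overlapped cob-6. PSAD1, the other ferredoxin-docking copy, had 427 and 498 CPM in the double mutant, 466 and 561 in cob-6 plants, 419 and 524 in sfr6-3 plants and 532 and 663 in WT. In PSAD1 the double mutant overlapped both single mutants. The 2 PSAE genes also encode a subunit at which ferredoxin docks, and both had their highest genotype mean in cob-6sfr6-3. PSAE1 had 431 and 629 CPM (cob-6sfr6-3), 379 and 502 (cob-6), 343 and 459 (sfr6-3) and 486 and 463 (WT). PSAE2 had 443 and 443 CPM in the double mutant, 362 and 429.7 in cob-6 plants, 381 and 421 in sfr6-3 plants and 395 and 434 in WT. PSAE1, PSAE2, PSAH2, PSAK and PSAL had log2 fold changes between -0.16 and 0.16 in cob-6sfr6-3 against WT, and none was called in any comparison by edgeR or DESeq2.

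The 4 genes for the photosystem I antenna, whose products form a belt at one side of the core, had fitted log2 fold changes below 0 in both single mutants against WT. In cob-6sfr6-3 against WT 3 of 4 did, and with all libraries none was called. LHCA3 had 2282 and 2483 CPM (cob-6sfr6-3), 2322 and 2716 (cob-6), 2411 and 2673 (sfr6-3) and 2775 and 4019 (WT). Every mutant library was below both WT libraries, at -0.51 ± 0.18 in cob-6sfr6-3 against WT (adjusted p = 0.241 by edgeR). Leaving out each library in turn, that change ranged over -0.75 (without WT replicate 1) to -0.22. LHCA1 had 2389.8 and 3387 CPM in the double mutant, 1959 and 2383 in cob-6 plants, 2506 and 2631 in sfr6-3 plants and 2589 and 3164 in WT. It was lowest in the 2 cob-6 libraries, at -0.41 ± 0.19 in cob-6 against WT (adjusted p = 0.947). LHCA4 had 3417 and 4005 CPM (cob-6sfr6-3), 3062 and 3748 (cob-6), 4145 and 4000.4 (sfr6-3) and 3916 and 5383 (WT). The cob-6 libraries lay below WT (-0.45 ± 0.18, adjusted p = 0.839) and the other mutants overlapped it. LHCA2 ranged from 1951 to 2838 CPM, with the lowest value in cob-6sfr6-3 replicate 1 and the highest in WT replicate 2.

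LHCB1 to LHCB3 make up the trimers of LHCII, the main antenna of photosystem II. The summed level of the 5 LHCB1 copies, which hold most of these reads, was lower in all single-mutant libraries than in WT and than in cob-6sfr6-3. The sum does not depend on where reads shared among the 5 copies were placed. Whether reads were also shared with genes outside the sum was not tested. Summed, the copies had 27242 and 37201 CPM in the double mutant, 22708 and 26328 in cob-6 plants, 24688 and 25039 in sfr6-3 plants and 28736 and 36089 in WT. Neither single mutant overlapped WT (-0.40 ± 0.18 for cob-6, adjusted p = 0.929; -0.38 ± 0.18 for sfr6-3, adjusted p = 0.92). The double mutant did (-0.0085 ± 0.18), and the interaction term was 0.78 ± 0.26 (adjusted p = 0.50). Replicate 2 of cob-6sfr6-3 lay well above replicate 1. Without replicate 1 the sum in cob-6sfr6-3 was above WT, at a log2 fold change of 0.20.

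Copy by copy, in reads that map to a single place, LHCB1.1 had 1423 and 2091 CPM (cob-6sfr6-3), 799 and 1226 (cob-6), 1491 and 1864 (sfr6-3) and 1733 and 2383 (WT). Both cob-6 libraries were below all others, at -1.02 ± 0.24 against WT (adjusted p = 0.241 by edgeR; on all reads DESeq2 gave -1.03 with an adjusted p of 0.00137). LHCB1.2 had 3536 and 4796 CPM in the double mutant, 2265 and 2969.6 in cob-6 plants, 2961 and 3159.7 in sfr6-3 plants and 3059 and 3309 in WT. The double mutant exceeded all 6 other libraries, at 0.67 ± 0.18 against cob-6 (adjusted p = 0.0944) and 0.39 ± 0.18 against WT (adjusted p = 0.351). LHCB1.4 and LHCB1.5 are a neighbouring pair on chromosome 2. LHCB1.4 had 2874 and 3394 CPM (cob-6sfr6-3), 2592 and 2500.2 (cob-6), 2708 and 2252 (sfr6-3) and 3009 and 4253 (WT). LHCB1.5 had 8348 and 10305 CPM in the double mutant, 6078 and 7196 in cob-6 plants, 6989 and 6760.5 in sfr6-3 plants and 7853 and 9802 in WT. In both genes the single mutants lay below WT and below cob-6sfr6-3, and cob-6sfr6-3 overlapped WT. The interaction terms were 0.85 ± 0.26 (adjusted p = 0.426) and 0.85 ± 0.25 (adjusted p = 0.396). LHCB1.3, the most abundant copy, had 7163 and 10139.9 CPM (cob-6sfr6-3), 7392 and 8189 (cob-6), 6517 and 6932 (sfr6-3) and 8428 and 10584 (WT). Its sfr6-3 libraries were the lowest.

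**Figure D4:**
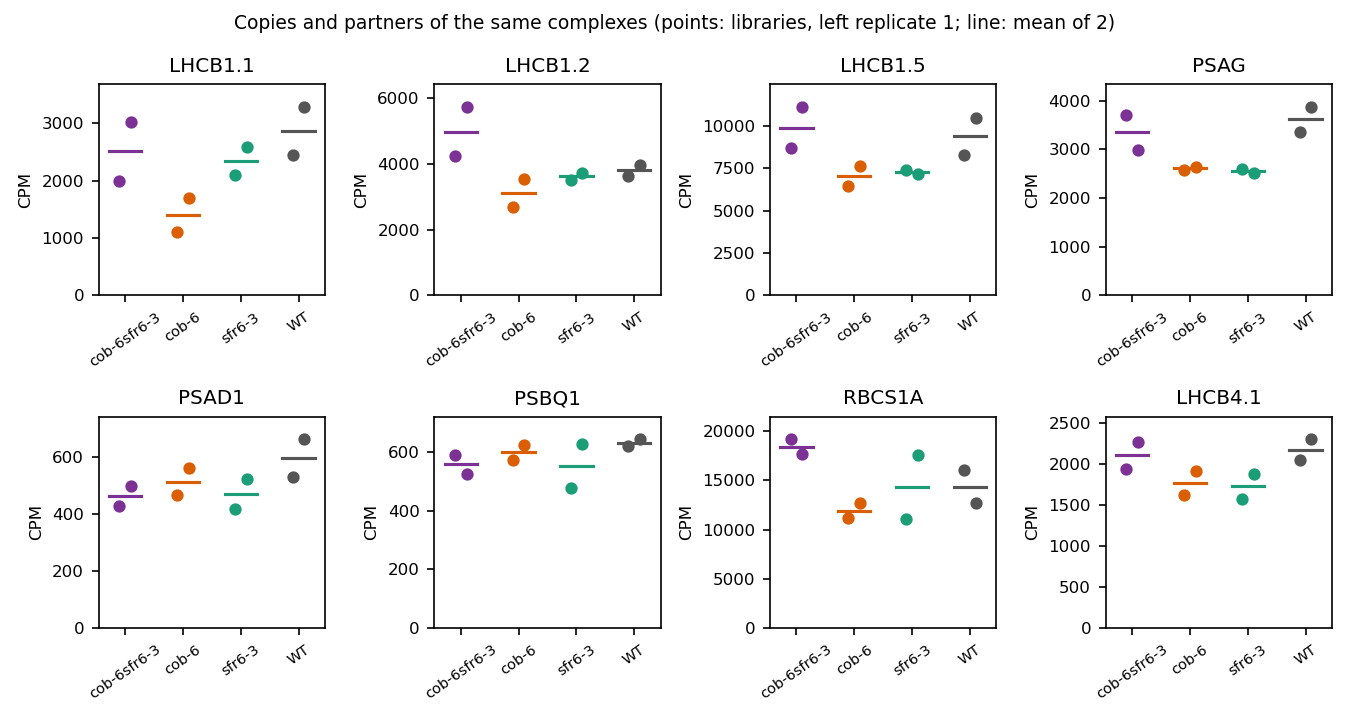
CPM of 8 further members in the 8 libraries, cob-6sfr6-3 at the left and WT at the right of each panel. The values are on all reads, so those of the LHCB1 copies exceed the single-place values in the text. Points are libraries and bars genotype means. LHCB1.2 and RBCS1A stood highest in cob-6sfr6-3 and PSAG lowest in the single mutants.

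The LHCB2 and LHCB3 genes, whose products share the trimers with LHCB1, did not follow this order. Summed, the 3 LHCB2 copies had 2145 and 2163 CPM in the double mutant, 1509 and 2511 in cob-6 plants, 2860.2 and 3486 in sfr6-3 plants and 2804 and 4377 in WT. The double mutant lay below both sfr6-3 and both WT libraries and inside the cob-6 range, at -0.74 ± 0.25 against WT (adjusted p = 0.212). LHCB2.3 (AT3G27690, chr3:10255906-10257489) had 174 and 177 CPM (cob-6sfr6-3), 180.0 and 308 (cob-6), 218 and 332 (sfr6-3) and 331 and 509.9 (WT). It was lowest in cob-6sfr6-3, at -1.26 ± 0.27 against WT. Its adjusted p was 0.0621 on all reads and 0.0411 on single-place reads, although 100.0% of its own reads map to a single place. Leaving out each library in turn, its change against WT ranged over -1.54 (without WT replicate 1) to -0.91. LHCB3 had 675 and 812 CPM in the double mutant, 871 and 1151 in cob-6 plants, 938 and 1181 in sfr6-3 plants and 1116 and 1794 in WT. It was also lowest in cob-6sfr6-3, at -0.97 ± 0.23 against WT (adjusted p = 0.0785 by edgeR). DESeq2 called LHCB3 lower there. Without WT replicate 1, which leaves the higher WT library, it was at -1.27. LHCB2.1 and LHCB2.2 were lowest in cob-6 replicate 1. On all reads DESeq2 called both lower in cob-6 against WT, and LHCB2.2 also lower in cob-6sfr6-3 against WT. Without WT replicate 1, which leaves the higher WT library, LHCB2.2 was at -1.12 ± 0.23 in cob-6 and -1.0 ± 0.23 in cob-6sfr6-3, each against WT.

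Of the minor antenna genes, which link LHCII to the photosystem II core (LHCB4 for CP29, LHCB5 for CP26, LHCB6 for CP24), LHCB4.3 stood apart. LHCB4.3 (AT2G40100, chr2:16745628-16747424) had 4.16 and 5.38 CPM (cob-6sfr6-3), 12.6 and 17.6 (cob-6), 6.75 and 9.24 (sfr6-3) and 11.8 and 8.15 (WT). The cob-6 libraries were the highest and the cob-6sfr6-3 libraries the lowest, and LHCB4.3 fell by 1.66 log2 units in cob-6sfr6-3 against cob-6 (SE 0.29, adjusted p = 0.0193, edgeR's quasi-likelihood test). The call was lost without cob-6 replicate 2, at -1.39 (adjusted p = 0.187). In cob-6sfr6-3 against WT, LHCB4.3 stood at -1.07 ± 0.28 (adjusted p = 0.119 by edgeR), and DESeq2 called it lower. Its change in cob-6 against WT was 0.59 ± 0.28 (adjusted p = 0.949) and its interaction term -1.33 ± 0.40 (adjusted p = 0.445), the lowest of the members' interaction terms. In reads these levels are 107 and 200 in cob-6sfr6-3, against 327 and 430 in cob-6, 173 and 247 in sfr6-3 and 3809 and 201 in WT, fewer over all libraries than any other member. LHCB4.2 had 822 and 1227 CPM in the double mutant, 778 and 1103 in cob-6 plants, 1009 and 909 in sfr6-3 plants and 1155 and 1618 in WT. Both single mutants were below WT (-0.56 ± 0.23 for cob-6, adjusted p = 0.855; -0.53 ± 0.23 for sfr6-3, adjusted p = 0.867). LHCB5 had 4833 and 5354 CPM (cob-6sfr6-3), 5858 and 6872 (cob-6), 5433 and 6105 (sfr6-3) and 6379 and 8381 (WT). Its lowest libraries were those of cob-6sfr6-3 (-0.53 ± 0.17 against WT, adjusted p = 0.195 by edgeR and 0.029 by DESeq2). Without WT replicate 1, which leaves the higher WT library, it was at -0.72 ± 0.18. LHCB4.1 and LHCB6 differed from WT by -0.046 ± 0.16 and 0.029 ± 0.21 in cob-6sfr6-3.

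The extrinsic subunits of photosystem II, PSBO, PSBP and PSBQ, shield the manganese cluster at which water is oxidised, and none of their 5 genes was called by edgeR with all libraries. PSBQ2 had 589.9 and 557 CPM in the double mutant, 778 and 791 in cob-6 plants, 629 and 652 in sfr6-3 plants and 747 and 1142 in WT. The cob-6sfr6-3 libraries were the lowest, at -0.72 ± 0.18 against WT (adjusted p = 0.105 by edgeR and 0.00292 by DESeq2). Leaving out each library in turn, this change ranged over -0.99 (without WT replicate 1) to -0.38. In sfr6-3 against WT, PSBQ2 ranged over -0.83 (without WT replicate 1) to -0.22. PSBO1, the main copy of the manganese-stabilising protein, had 3439 and 3377 CPM (cob-6sfr6-3), 2902 and 3164 (cob-6), 2769 and 3269 (sfr6-3) and 3306 and 4042 (WT). Both single mutants were below WT and below cob-6sfr6-3, which lay inside the WT range, at 0.45 ± 0.22 for the interaction (adjusted p = 0.57). PSBO2 had 837 and 744 CPM in the double mutant, 589 and 629 in cob-6 plants, 666 and 823 in sfr6-3 plants and 734 and 840.1 in WT. It was lowest in cob-6, at -0.37 ± 0.16 against WT (adjusted p = 0.877) and 0.38 ± 0.16 in cob-6sfr6-3 against cob-6 (adjusted p = 0.255). PSBP1 and PSBQ1 had log2 fold changes of -0.34 and -0.18 in cob-6sfr6-3 against WT.

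None of the remaining photosystem II genes was called in any comparison by edgeR or DESeq2. PSBS encodes the protein that senses lumen acidity in the thermal dissipation of excess light. It had 719 and 659 CPM (cob-6sfr6-3), 443 and 583 (cob-6), 535 and 761 (sfr6-3) and 579 and 486 (WT). It was, with RBCS1A, RBCS1B, LHCB1.2 and PSAE2, among the 5 members whose cob-6sfr6-3 libraries both exceeded WT (background 22.3%), at 0.37 ± 0.20 (adjusted p = 0.409). PSBW, a small subunit of the photosystem II supercomplex, had 948 and 1005 CPM in the double mutant, 1059.8 and 1159.6 in cob-6 plants, 958 and 1179 in sfr6-3 plants and 1158 and 1505 in WT. It stood at -0.45 ± 0.17 in cob-6sfr6-3 against WT (adjusted p = 0.258). PSBR, which helps to hold the extrinsic subunits, had 1854 and 2093 CPM (cob-6sfr6-3), 1695 and 1764 (cob-6), 1728 and 1635 (sfr6-3) and 1848 and 1964 (WT). Both single mutants were below WT and below cob-6sfr6-3. PSBY, a small membrane subunit, had 826 and 700.2 CPM in the double mutant, 596 and 740.3 in cob-6 plants, 660.0 and 883 in sfr6-3 plants and 793 and 947 in WT. Its genotype mean was lowest in cob-6 (-0.38 ± 0.18 against WT, adjusted p = 0.953), with the libraries of the 3 mutants overlapping. PSBX, another small membrane subunit, ranged from 803 to 1183 CPM over the libraries.

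The Rubisco small-subunit genes were the one group with a median above 0 in cob-6sfr6-3 against WT (0.28), and none of the 4 was called by edgeR with all libraries. They were also the one such group in cob-6 against WT (0.063). In sfr6-3 against WT their median was -0.07, and the other groups ran from -0.37 (LHCB1 to LHCB3) to -0.18 (other PSB genes). In cob-6sfr6-3 against WT the other medians were -0.26 for LHCA, -0.22 for LHCB1 to LHCB3, -0.44 for LHCB4 to LHCB6, -0.14 for PSA, -0.18 for the extrinsic PSB and -0.19 for the other PSB genes. RBCS1A (AT1G67090, chr1:25048158-25049667) had 19191 and 17675 CPM (cob-6sfr6-3), 11127 and 12738 (cob-6), 11026 and 17595 (sfr6-3) and 16038 and 12699 (WT). Both cob-6sfr6-3 libraries exceeded all others, the second one by little over sfr6-3 replicate 2. Its log2 fold change in cob-6sfr6-3 was 0.63 ± 0.21 against cob-6 (adjusted p = 0.173 by edgeR and 0.0291 by DESeq2) and 0.36 ± 0.21 against WT (adjusted p = 0.46). RBCS1B, in single-place reads, had 978 and 978 CPM in the double mutant, 784 and 845 in cob-6 plants, 564 and 939.9 in sfr6-3 plants and 862 and 492 in WT. It was again highest in cob-6sfr6-3, with WT replicate 2 the lowest library. On all reads RBCS1B was at 0.56 ± 0.27 in cob-6sfr6-3 against WT (adjusted p = 0.378 by edgeR). Leaving out each library in turn, that change ranged over 0.19 to 1.04 (without WT replicate 1). RBCS2B, in single-place reads, had 985 and 941 CPM (cob-6sfr6-3), 1106 and 1246 (cob-6), 642 and 866 (sfr6-3) and 1163 and 939 (WT). It was lowest in sfr6-3 (-0.48 ± 0.18 against WT, adjusted p = 0.689). Summed, the 3 B copies had 8589 and 9944 CPM in the double mutant, 7355 and 9335 in cob-6 plants, 5921 and 8484 in sfr6-3 plants and 8986 and 7160.0 in WT. The sum showed no change past the threshold.

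Across the complexes the members differed in where the double mutant stood relative to the other genotypes. In 8 members both cob-6sfr6-3 libraries were below all 6 other libraries (18.2% of members, against 9.97% of all genes): LHCB2.3, LHCB3, LHCB4.3, LHCB5, PSAD2, PSAF, PSAN and PSBQ2. In 12 members both cob-6sfr6-3 libraries were above all 4 single-mutant libraries (background 12.6%): LHCB1.2, LHCB1.4, LHCB1.5, LHCB4.1, PSAE2, PSAG, PSAH1, PSAO, PSBO1, PSBR, RBCS1A and RBCS1B. This count is on all reads, and PSAH1 overlapped the single mutants in single-place reads. In 15 members the libraries of both single mutants were all below both WT libraries (background 5.33%). Of these, PSAF alone also had cob-6sfr6-3 below every other library. Several complexes held members of more than 1 kind. Of the LHCII genes, LHCB1.2, LHCB1.4 and LHCB1.5 were above both single mutants and LHCB2.3 and LHCB3 below. Of photosystem I, PSAE2, PSAG and PSAO were above and PSAD2, PSAF and PSAN below. The median interaction term over the members was 0.34, against 0.012 over all genes, and highest for LHCB1 to LHCB3, at 0.64. All these comparisons share libraries, so they are descriptions of 1 set of 8.

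Counted by whole groups of libraries, both libraries of cob-6sfr6-3 were below both WT libraries in 15 members and above both in 5 (all genes: 22.4% and 22.3%). For cob-6 against WT the counts were 27 and 1 (20.1% and 20.4%), and for sfr6-3 against WT 22 and 0 (18.9% and 17.2%). In cob-6sfr6-3 against cob-6 they were 10 and 16 (24% and 23.1%), and against sfr6-3 10 and 15 (20.7% and 21%). Members below both WT libraries were most numerous in cob-6 and least in the double mutant.

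Because pairs of copies code for the same subunit, the split of reads between copies describes which copy a subunit's RNA came from. PSAD2 took 39.2 and 32.4% (cob-6sfr6-3), 44.9 and 45.4% (cob-6), 44.9 and 45.6% (sfr6-3) and 45.0 and 50.5% (WT) of the reads that map to PSAD1 or PSAD2 alone. The share was lowest in both cob-6sfr6-3 libraries, whose 95% Wilson intervals (38.5% to 39.9% and 31.8% to 32.9%, counting error only) lay below those of the 6 other libraries. PSBQ2 took 49.95 and 51.4% in the double mutant, 57.5 and 55.9% in cob-6 plants, 56.8 and 50.9% in sfr6-3 plants and 54.6 and 63.9% in WT of the PSBQ reads. The values of cob-6sfr6-3 replicate 2 and sfr6-3 replicate 2 were close. LHCB4.3 took 0.15 and 0.154% (cob-6sfr6-3), 0.521 and 0.58% (cob-6), 0.261 and 0.33% (sfr6-3) and 0.366 and 0.208% (WT) of the LHCB4 reads. It was lowest in cob-6sfr6-3 and highest in cob-6. RBCS1A took 78.0 and 75.0% in the double mutant, 70.7 and 68.7% in cob-6 plants, 74.5 and 76.7% in sfr6-3 plants and 74.4 and 73.7% in WT of the RBCS reads. Both cob-6 libraries were below all others. PSBO2 took 19.6 and 18.1% (cob-6sfr6-3), 16.9 and 16.6% (cob-6), 19.4 and 20.1% (sfr6-3) and 18.2 and 17.2% (WT) of the PSBO reads. It was again lowest in cob-6. With 2 libraries against 2, an exact permutation test cannot pass 0.05, so these shares are descriptions.

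**Figure D5:**
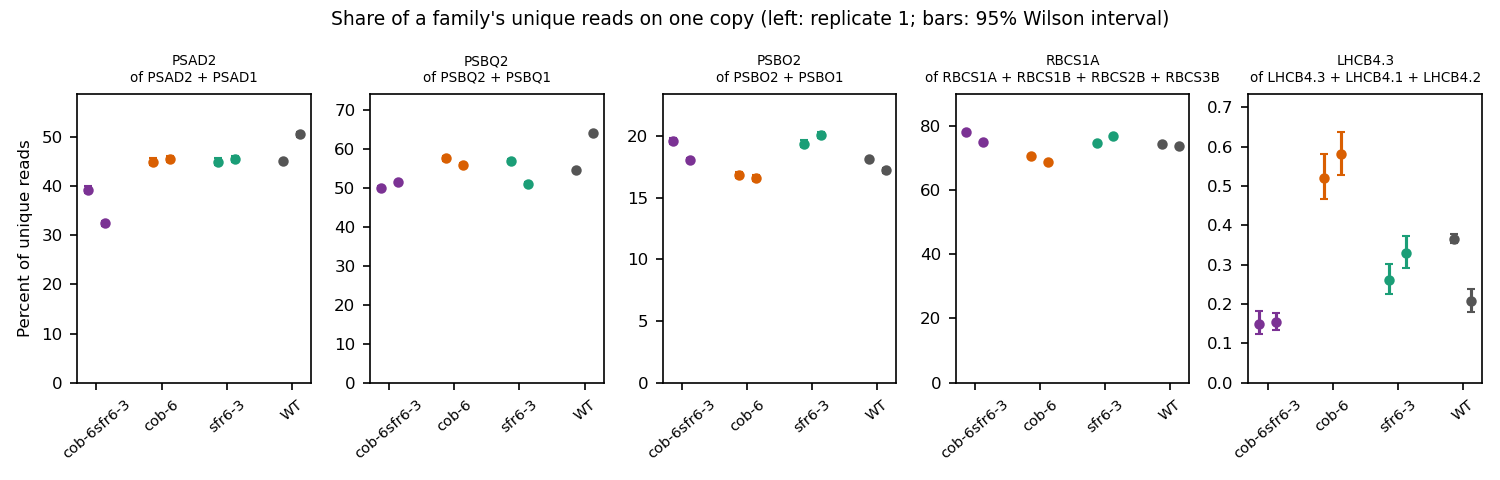
Share of the reads of a gene family that fall on 1 copy, by library, from reads that map to a single place. Bars are 95% Wilson intervals (counting error only), with cob-6sfr6-3 at the left and WT at the right of each panel. The PSAD2 share was 39.2% and 32.4% in cob-6sfr6-3, against 45.0% and 50.5% in WT.

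The pairs PSAD1 with PSAD2 and PSBQ1 with PSBQ2 are shown with the bases upstream of their starts. The 250 bases before each gene start (RefSeq, TAIR10.1) are printed 5′ to 3′ in the direction of the gene, with matches to CACGTG (the G-box), GATAAG (the I-box), CCAATC or TATAAA on either strand in capitals. No 2 matches overlap in these windows. PSAD1 (AT4G02770, chr4:1230165-1230414, minus strand) holds 1 GATAAG, PSAD2 (AT1G03130, chr1:754263-754512, minus strand) none of the 4. PSBQ1 (AT4G21280, chr4:11334102-11334351, plus strand) holds 2 CACGTG and 1 TATAAA, and PSBQ2 (AT4G05180, chr4:2673244-2673493, minus strand) 2 CACGTG, 1 GATAAG and 1 CCAATC. Of pairs not printed, PSAE1 holds 2 TATAAA and PSAE2 1 CACGTG, whereas PSBO1 and PSBO2 hold 1 TATAAA each. Whether upstream differences go with the levels of the copies was not tested.
PSAD1: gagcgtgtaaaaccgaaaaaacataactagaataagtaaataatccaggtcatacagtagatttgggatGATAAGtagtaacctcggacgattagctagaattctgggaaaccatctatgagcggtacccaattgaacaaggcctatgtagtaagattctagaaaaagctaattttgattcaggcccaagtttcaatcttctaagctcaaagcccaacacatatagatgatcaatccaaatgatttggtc
PSAD2: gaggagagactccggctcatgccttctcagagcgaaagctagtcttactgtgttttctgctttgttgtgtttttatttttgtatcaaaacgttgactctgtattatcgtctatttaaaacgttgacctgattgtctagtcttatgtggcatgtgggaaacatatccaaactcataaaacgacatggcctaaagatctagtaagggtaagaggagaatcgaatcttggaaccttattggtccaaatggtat
PSBQ1: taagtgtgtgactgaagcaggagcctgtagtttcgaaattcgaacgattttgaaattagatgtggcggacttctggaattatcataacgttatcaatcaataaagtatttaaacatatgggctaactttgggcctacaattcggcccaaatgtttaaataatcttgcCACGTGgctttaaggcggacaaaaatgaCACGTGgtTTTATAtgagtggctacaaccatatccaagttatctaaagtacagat
PSBQ2: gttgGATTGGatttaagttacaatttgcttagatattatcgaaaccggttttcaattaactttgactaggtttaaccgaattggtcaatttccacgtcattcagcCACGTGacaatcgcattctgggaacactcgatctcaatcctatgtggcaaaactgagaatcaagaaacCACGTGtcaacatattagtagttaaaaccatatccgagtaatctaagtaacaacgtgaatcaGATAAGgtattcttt

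Over all members, CACGTG was in 9 of 44 windows (20.4%, against 6.49% of the windows of all 27443 protein-coding genes). GATAAG was in 10 (22.7% against 12.3%), CCAATC in 11 (25.0% against 10.2%) and TATAAA in 19 (43.2% against 47.4%). CCAATC was unevenly spread. It was in 3 of 4 LHCA windows, 5 of 9 LHCB1 to LHCB3 windows, 2 of 5 LHCB4 to LHCB6 windows and 0 of 12 PSA windows. None of the 4 motifs was in the windows of LHCB1.1, LHCB1.2, LHCB1.4, LHCB5, PSAD2, PSAL, PSAN, PSBR, PSBS, PSBW, PSBY and RBCS3B. Among the 8 members lowest in cob-6sfr6-3 each motif was found in some windows and not in others. A match is a run of letters, not a shown binding site.

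The genes around the members were looked at as lists. Of 24 genes of chlorophyll synthesis, 1 fell in cob-6sfr6-3 against WT by edgeR's quasi-likelihood test, and no other pair of genotypes gave a call. This was HEMA1, for glutamyl-tRNA reductase, the first committed step of the pathway, with 126 and 144 CPM in the double mutant, 298 and 201 in cob-6 plants, 215 and 266 in sfr6-3 plants and 315 and 430.5 in WT. Its log2 fold change was -1.46 ± 0.21 (adjusted p = 0.00978). HEMA1 also passed the test over all 4 genotypes (adjusted p = 0.0257). DESeq2 called HEMA1 and CHLH, a subunit of magnesium chelatase, lower in cob-6sfr6-3 against WT and against sfr6-3, and HEMA1 lower against cob-6. The median of the list in cob-6sfr6-3 against WT was 0.04, close to that of all genes. Of 11 genes of thylakoid import and Rubisco assembly, CPSRP43, a subunit of the chloroplast signal recognition particle that carries LHC proteins to the membrane, rose in cob-6sfr6-3 against cob-6 (0.88 ± 0.16, adjusted p = 0.0232). It had 360.5 and 461 CPM (cob-6sfr6-3), 210.3 and 237 (cob-6), 251 and 284 (sfr6-3) and 308 and 282 (WT). None of 13 electron transport, 16 Calvin cycle or 8 LHC-like genes was called by edgeR in any comparison. At an unadjusted p below 0.05 in cob-6sfr6-3 against WT these lists held 2, 1 and 1 lower and 0, 1 and 0 higher, and DESeq2 called 1, 0 and 0. The 1 was FD2, a leaf ferredoxin, which DESeq2 also called lower in sfr6-3 against WT. DESeq2 called FBA2, a chloroplast aldolase, higher in cob-6sfr6-3 against cob-6. Against sfr6-3 it called CP12-2, a regulator of the Calvin cycle, higher and the LHC-like OHP1 lower. The medians of the 3 lists in cob-6sfr6-3 against WT were -0.10, 0.13 and -0.23. Of 18 light and plastid regulators 0 were called, 9 were lower and 1 higher at an unadjusted p below 0.05 in cob-6sfr6-3 against WT (background 8.44% and 6.02%), and DESeq2 called HY5, PIF5 and SIG5, all lower. HY5, a light-signalling factor known to bind G-boxes of photosynthesis genes, had 8.75 and 8.88 CPM in the double mutant, 15.1 and 14.9 in cob-6 plants, 13.5 and 9.65 in sfr6-3 plants and 13.8 and 17.8 in WT. Its log2 fold change against WT was -0.84 ± 0.22 in cob-6sfr6-3 (adjusted p = 0.114 by edgeR). GLK1, an activator of antenna genes, had 64.9 and 65.9 CPM (cob-6sfr6-3), 72.3 and 75.4 (cob-6), 39.6 and 66.1 (sfr6-3) and 58.7 and 43.5 (WT). It stood at 0.35 ± 0.22 in the same comparison (adjusted p = 0.482). Of the 19 root markers 1 fell in cob-6sfr6-3 against WT, TIP2;3, a tonoplast channel, at -4.72 ± 0.61 (adjusted p = 0.00527). TIP2;3 had 1.67 and 0.511 CPM in the double mutant, 3.46 and 2.79 in cob-6 plants, 18.2 and 9.54 in sfr6-3 plants and 13.9 and 41.5 in WT. DESeq2 called 3 root markers lower in cob-6sfr6-3 against WT, CASP5, AKT1 and TIP2;3. The list's median was 0.0068, and its summed level in both cob-6sfr6-3 libraries lay above cob-6 and below sfr6-3 and WT. What share root tissue has in the members' levels was not tested.

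The authors' deposited table gives a signed fold change (positive for higher in cob-6sfr6-3) and a p-value for cob-6sfr6-3 against cob-6. In the authors' deposited table, a p below 0.05 was given for 18 of 44 members (40.9%), against 3.18% of all 33602 genes. The 33602 include genes with too few reads for edgeR's filter, which kept 21384 genes and all 44 members. These shares are therefore not of like sets. The authors' deposited table has LHCB4.3 at -3.06, PSAN at -1.78 and PSAD2 at -1.65 on the lower side, and LHCB1.1 at 1.78, LHCB1.2 at 1.6 and RBCS1A at 1.54 on the higher side. In edgeR's test on the same libraries the matching log2 fold changes were -1.66, -0.83 and -0.72, and 0.84, 0.68 and 0.63, in that order, of which only that of LHCB4.3 passed an adjusted p of 0.05. DESeq2 called all 6, with adjusted p from 3.16e-05 for LHCB4.3 to 0.0291 for RBCS1A. No source used here says how the p-values of the authors' deposited table were made.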

How the data were processed

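RNA of whole seedlings was sequenced as paired 100-base reads in 8 libraries, 2 for each of 4 genotypes. Per the file headers, the authors deposited counts of total, unique, exon and intron reads per gene, and RPKM values, which a check found to be exon reads scaled to gene length and to the gene reads of the library. Per the file headers, 1 table holds the authors' p-value and a signed fold (a score) for cob-6sfr6-3 against cob-6. No source used here names the aligner or build, and 0 columns belonged to other series. Gene positions and sequences are those of RefSeq TAIR10.1, matched by locus; all 44 members overlap the deposited gene of the same locus, and 19 share its start or end exactly.

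Total gene read counts were tested with edgeR 4.0.16 (limma 3.58.1, R 4.3.3): filterByExpr, TMM scaling, glmQLFit and glmQLFTest with 1 mean per genotype over all 8 libraries, and Benjamini-Hochberg adjustment over 21384 genes, called at 0.05. The residual degrees of freedom were 4, with 7.91 from the prior. All 44 members passed the filter; since the filter keeps genes by their counts in any genotype, no support is drawn from that. The common biological coefficient of variation was 0.214. Family sums used the same test with the copies of a family as 1 gene. The fit was first run on simulated counts, drawn independently, in which WT replicate 1 had the depth of WT replicate 2. That run therefore does not cover the excess of reads in WT replicate 1. DESeq2 1.42.0, RLE scaling, unique or exon reads, no filter, a replicate block, fits of the genotypes compared alone, leaving out each library, and taking the other 7 libraries off WT replicate 1 were alternatives. Described tables, sequences and figures were made with Python 3.11.15, pandas 2.3.3, numpy 2.4.6, SciPy 1.17.1, Biopython 1.88 and matplotlib 3.10.9. Named with values were members called in any comparison and, per complex and comparison, the member with the smallest p and the one with the largest change; of other lists, the called genes. The rule also asked, in lists with no call, for the 2 genes with the smallest p per comparison; most of these are not printed. Genes of other lists named from DESeq2's calls, and GLK1, were added after their values were seen. The other members named, the 8 lowest in cob-6sfr6-3 among them, were also chosen after their values were seen. Members, lists and tests were chosen with earlier results of these data known.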

Additional observations from a re-analysis of the deposited data

How the results depend on the processing

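In members called (0 in cob-6, 0 in sfr6-3 and 2 in cob-6sfr6-3, each against WT; 1 in cob-6sfr6-3 against cob-6, 0 in cob-6sfr6-3 against sfr6-3, 0 in the interaction and 0 over any genotype difference), the alternatives gave the following in the same order. DESeq2 called 3, 1, 8, 6, 1, 1 and 12 members. With no filter on low counts, edgeR called 4, 2, 9, 5, 3, 1 and 10. Over all comparisons and settings, the number of all genes called also moved in 56 cases and stayed alike in 61. The counts given here are therefore not read as results about the members. With the other 7 libraries taken off WT replicate 1 in unique reads, it called 1 in sfr6-3 against WT, 7 in cob-6sfr6-3 against WT, 2 in cob-6sfr6-3 against cob-6 and 6 over any difference. Unique reads gave 4 in cob-6sfr6-3 against WT and 2 over any difference, and fits of the genotypes compared alone gave 0 in cob-6sfr6-3 against WT and 2 in cob-6sfr6-3 against cob-6. Leaving out each library in turn, the counts ranged over 0 to 1, 0 to 2, 0 to 10, 0 to 3, 0 to 0, 0 to 0 and 0 to 9, with the highest count against WT reached without WT replicate 1 and 0 reached in cob-6sfr6-3 against WT without cob-6sfr6-3 replicate 1, among others. The median changes of the members ranged without single libraries over -0.43 to -0.16 (cob-6), -0.42 to -0.17 (sfr6-3) and -0.28 to -0.06 (cob-6sfr6-3) against WT, 0.03 to 0.27 in cob-6sfr6-3 against cob-6, -0.067 (without sfr6-3 replicate 1) to 0.20 (without sfr6-3 replicate 2) in cob-6sfr6-3 against sfr6-3, and 0.18 to 0.51 in the interaction; only the fifth changed sign. The cause of these shifts was not tested.

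With the replicate number as a block, 1 member was called in cob-6 against WT, 5 in cob-6sfr6-3 against WT, 3 in cob-6sfr6-3 against cob-6 and 3 over any difference. The shares of all genes called in this setting are not given, so these counts are not read as results about the members. Over all genes, same-numbered libraries did not deviate together (r of replicate differences from -0.074 to 0.049), and by that check the numbers are not taken to pair the samples. Most members, however, were higher in replicate 2 than in replicate 1 in every genotype (30 of 44 in cob-6sfr6-3, 42 in cob-6, 38 in sfr6-3 and 36 in WT).

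Changes that turned sign were small. Leaving out single libraries, RBCS1B in cob-6 against WT ranged over -0.092 (without WT replicate 2) to 0.76 (without WT replicate 1), and LHCA1 in cob-6sfr6-3 against sfr6-3 over -0.10 to 0.40 (without cob-6sfr6-3 replicates 2 and 1). The LHCB1 sum in cob-6sfr6-3 against WT ranged over -0.25 to 0.20 (without cob-6sfr6-3 replicates 2 and 1). The LHCB2 sum ranged over -0.46 to 0.18 in sfr6-3 against WT (without WT replicates 1 and 2), over -0.22 to 0.51 in cob-6sfr6-3 against cob-6 (without cob-6 replicates 1 and 2), and over -0.077 (without WT replicate 2) to 0.69 (without cob-6 replicate 2) in the interaction. The RBCS B sum in cob-6 against WT was -0.065 with the other libraries taken off WT replicate 1, and ranged over -0.13 (without cob-6 replicate 2) to 0.22 (without WT replicate 1). It ranged over -0.45 to 0.071 in sfr6-3 against WT (without sfr6-3 replicates 2 and 1), and over -0.011 to 0.33 in cob-6sfr6-3 against cob-6 (without cob-6 replicates 1 and 2). With total in place of unique reads the PSAH2 share of PSAH reads was 49.8%, 51.3%, 52.1% and 49.5% in cob-6sfr6-3, cob-6, sfr6-3 and WT. The RBCS1A share of RBCS reads was 66.5%, 59.0%, 66.3% and 64.0% in the same order. Total reads also count reads that fit several places. In the PSAH pair these were reads of PSAH1 (56.1% single-place reads, against 100.0% for PSAH2), and where else they fit was not tested. With 2 libraries per genotype, and WT replicate 1 never below the other libraries' summed unique reads, small changes could not be resolved; for LHCB4.3, with 107 to 430 unique reads outside WT replicate 1, counting error adds to this.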
